A study of Mus musculus with 10 samples.

Results

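Centrosomes organise microtubules, hollow polymers of alpha and beta tubulin that are nucleated from rings containing gamma tubulin. A centriole that docks at the plasma membrane becomes the basal body of a primary cilium, a sensory projection that is built by intraflagellar transport and gated at its base by the transition zone. Cytoplasmic dyneins carry cargo along microtubules, and axonemal dyneins bend motile cilia and sperm tails. In embryonic stem cells, which divide rapidly, centrosomes duplicate in each cycle and form the poles of the spindle.

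The genes of this machinery were chosen by symbol alone, with a name pattern that takes the Cep, Ift, Bbs, Nek, Haus, Dnah, Dync, Tctn and Nphp families, the tubulins, Pcm1, Ofd1, the Odf2 and Cc2d2 genes, the Rpgr genes and 4 transition zone Tmem genes. The pattern matched 74 of the 8694 genes that appear in at least 1 of the 4 deposited tables, and 139 protein-coding genes of the mouse RefSeq annotation. The tables list called genes, so the other matching genes have no value here.

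All libraries came from E14, an established mouse embryonic stem cell line grown on gelatin, as rRNA-depleted total RNA in strand-specific libraries. The groups were unedited wild type cells and 4 lines edited with CRISPR/Cas9 in Mbd3, which encodes a subunit of the NuRD chromatin remodelling complex in isoforms a, b and c. Mbd3ab KO cells (Mbd3ab -/-) and Mbd3cΔN-ab KO cells (Mbd3cdeltaN; ab-/-) carry mutations in exon 2, Mbd3c KO cells (Mbd3c -/-) in intron 2 and Mbd3abc KO cells (Mbd3abc -/-) in exon 5. Each of the 5 groups had 2 biological replicates per the labels, which do not say whether these were separate clones. The series is titled for an interaction of NuRD with Wdr5 in ES cells. All 4 comparisons share their wild type libraries, so their values are set side by side below and are not independent.

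Mbd3 itself was listed in 3 tables. Its level was 1523 and 1468 normalized reads in wild type against 506 and 638 in Mbd3ab KO, a fall of 2.61-fold. In Mbd3abc KO the fall was 13.0-fold and in Mbd3cΔN-ab KO 5.58-fold, while the Mbd3c KO table did not list the gene. Library depth ranged from 0.710 to 1.59 times that of the first wild type library across the libraries of these 3 tables. Of 10 embryonic stem cell markers, 3 were called higher (Klf4 1.95-fold, Sox2 1.40-fold, Tdgf1 1.31-fold) and 4 lower in Mbd3abc KO (among them Pou5f1 3.02-fold and Esrrb 1.89-fold), where 52.1% of all tested genes were called. In Mbd3cΔN-ab KO 1 was higher and 3 lower, where 41.5% of all tested genes were called. None of 10 sperm and testis markers was listed in any table.

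A level below is a normalized read count, reads divided by the size factor of the library, and is comparable between libraries within a table. A fold is the ratio of the means of 2 libraries. A gene is called where the authors' deposited DESeq2 test gave an adjusted p under 0.05. Every member listed was called, and its mutant and wild type libraries did not overlap. The share of all called genes without such overlap was not counted, so this does not set the members apart.

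In Mbd3abc KO 72 members were called, 38 higher and 34 lower, where 52.1% of the 15622 genes tested were called, 27.1% higher and 24.9% lower. In Mbd3cΔN-ab KO 54 members were called, 30 higher and 24 lower, where 41.5% of 14429 tested genes were called, 21.1% higher and 20.4% lower. Mbd3ab KO had 3 called members, 2 higher and 1 lower, where 3.35% of 13201 tested genes were called, 2.05% higher and 1.3% lower. Mbd3c KO had none, where 0.353% of 10759 tested genes, 38 in all, were called, 0.316% higher and 0.0372% lower. The median fold of the called members was 1.40 in Mbd3abc KO, beside 1.38 for all called genes. In Mbd3cΔN-ab KO it was 1.58, beside 1.30 for all called genes. The balance of rises and falls over the members was thus near that of all called genes, and the direction differed between their roles.

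The calls differed in how far they rested on 1 library. This was followed gene by gene for members and not for all called genes, so members cannot be ranked against other genes here. With each library left out in turn and DESeq2 refitted on recovered reads, 36 of the 72 members kept their call in Mbd3abc KO whichever library was missing, and 13 of the 54 did so in Mbd3cΔN-ab KO. In Mbd3abc KO those that kept it include Cep290, Haus3, Cep83, Pcm1, Odf2l, Ift74, Ift172, Ift140, Dnah10, Dnah8, Dync1h1 and the 9 tubulins other than Tubb6 and Tubg1. In Mbd3cΔN-ab KO the 13 were Cep290, Cep55, Cep57, Cep83, Haus3, Haus6, Odf2l, Pcm1, Tuba1a, Tuba1b, Tuba1c, Tuba4a and Tubb3. Members that lost their call at least 1 time in both mutants include Ift22, Ift122, Cep164, Cep41, Cep192, Bbs5, Dnah17, Dync1i2, Tctn2, Tctn3, Tubg1 and Odf2. Leaving out the first wild type library left 41 calls in Mbd3abc KO and 15 in Mbd3cΔN-ab KO, and leaving out the second left 41 and 18. The calls over all genes fell as well, from 8132 to 3494 and 3631 in Mbd3abc KO and from 5989 to 1588 and 1650 in Mbd3cΔN-ab KO. Without the first Mbd3abc KO library 51 remained, and 55 without the second. Without the first Mbd3cΔN-ab KO library 37 remained, and 36 without the second.

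**Figure D1:**
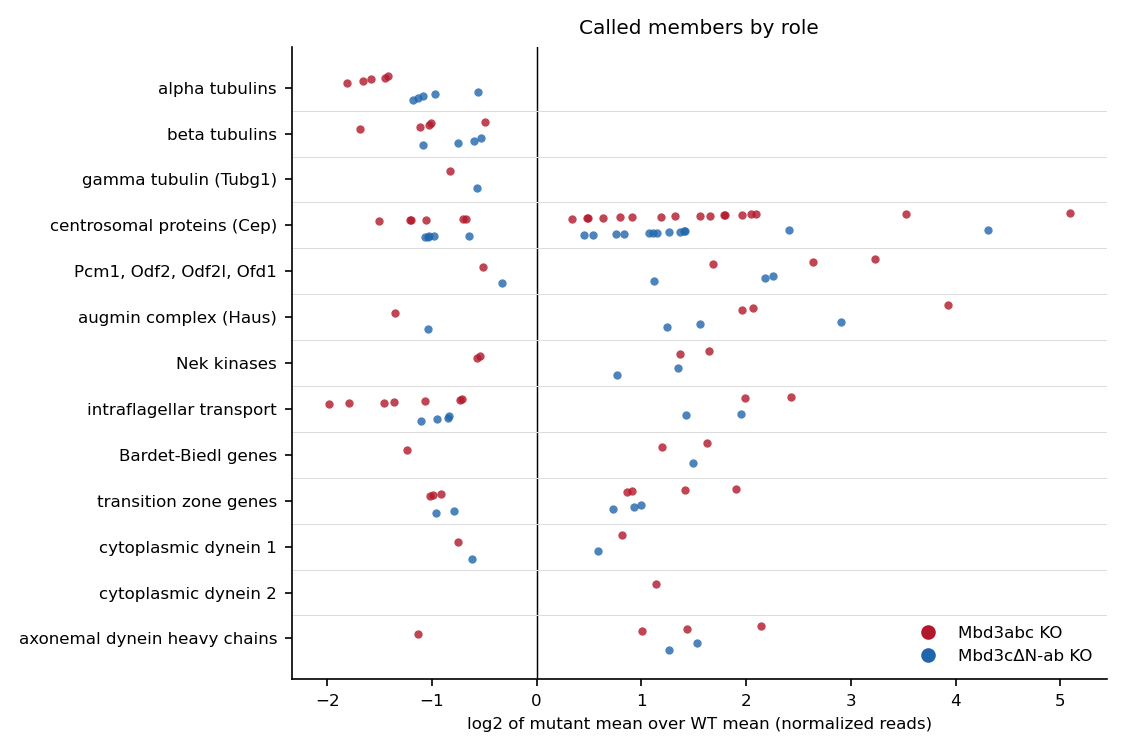
Each point is 1 called member, placed by the log2 ratio of the mutant mean to the wild type mean on the horizontal axis and by role on the vertical axis, red for Mbd3abc KO and blue for Mbd3cΔN-ab KO. All alpha, beta and gamma tubulin points lie left of 0, most Cep points lie right of it, and intraflagellar transport genes lie on both sides.

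The coding sequences at the extremes show a difference in base composition that is measured over all members further on. The first 120 coding bases are given for the 3 members with the largest rise in Mbd3abc KO and for the 2 intraflagellar transport genes among the 3 with the largest fall, from GENCODE M21 transcripts, with every G and C in capitals. On the mm10 build, Cep290 lies at chr10:100488289-100573655 (plus strand), Haus3 at chr5:34153897-34169424 (minus strand) and Cep83 at chr10:94688790-94790336 (plus strand). Ift172 lies at chr5:31253279-31291114 (minus strand) and Ift22 at chr5:136908150-136913244 (plus strand).
Cep290: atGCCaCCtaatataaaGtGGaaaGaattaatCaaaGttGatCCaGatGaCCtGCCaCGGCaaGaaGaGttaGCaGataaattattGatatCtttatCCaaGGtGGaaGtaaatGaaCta
Haus3: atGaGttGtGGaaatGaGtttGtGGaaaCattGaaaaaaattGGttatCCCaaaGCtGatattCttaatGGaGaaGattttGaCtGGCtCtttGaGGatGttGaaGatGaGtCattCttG
Cep83: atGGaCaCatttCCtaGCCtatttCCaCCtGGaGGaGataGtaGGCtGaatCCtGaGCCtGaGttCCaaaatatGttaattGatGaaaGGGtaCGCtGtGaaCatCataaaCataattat
Ift172: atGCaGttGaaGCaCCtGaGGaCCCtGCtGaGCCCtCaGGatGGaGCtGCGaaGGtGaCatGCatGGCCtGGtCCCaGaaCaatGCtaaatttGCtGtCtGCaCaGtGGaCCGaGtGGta
Ift22: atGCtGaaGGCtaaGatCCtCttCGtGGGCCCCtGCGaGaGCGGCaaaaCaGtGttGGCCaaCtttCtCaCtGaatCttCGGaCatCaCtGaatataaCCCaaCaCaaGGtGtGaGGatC
The whole coding sequence had 38.8% G and C in Cep290, 36.8% in Haus3 and 42.0% in Cep83. It had 53.1% in Ift172 and 51.5% in Ift22.

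The 5 alpha tubulin genes listed fell in both Mbd3abc KO and Mbd3cΔN-ab KO. Tuba1b, the alpha tubulin with the most reads per kb in wild type (4399 in the Mbd3abc KO table), stood at 6517 and 7173 normalized reads in wild type and at 2118 and 2456 in Mbd3abc KO, 2.99-fold lower. Its log2 fold change in the authors' deposited table was -1.56 with SE 0.15 (adjusted p = 2.44e-24). Both mutant libraries lay far below both wild type libraries. For Mbd3cΔN-ab KO the Tuba1b level went from 6186 and 6856 to 2807 and 2939, 2.27-fold lower.

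Tuba1a, an isotype abundant in neurons and dividing cells, had 2859 and 3243 normalized reads in wild type and 773 and 969 in Mbd3abc KO, 3.50-fold lower. Its values were 2713 and 3099 against 1298 and 1447 in the Mbd3cΔN-ab KO table, 2.12-fold lower. The 2 mutant libraries of each line were close to each other relative to their distance from wild type. Tuba4a went from 3835 and 3716 to 1041 and 1350 in Mbd3abc KO (3.16-fold lower), and from 3640 and 3551 to 1419 and 1871 in Mbd3cΔN-ab KO (2.19-fold lower). Tuba1c fell 2.72-fold in Mbd3abc KO and 1.96-fold in Mbd3cΔN-ab KO. Tuba3a, an isotype best known from testis, fell 2.67-fold and 1.47-fold.

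Summed over these 5 alpha tubulins, normalized reads per kb were 9139 and 9741 in wild type and 2821 and 3326 in Mbd3abc KO, 3.07-fold lower. The sum for Mbd3cΔN-ab KO was 8674 and 9310 against 3971 and 4439, 2.14-fold lower. Tubulins that were not called are missing from these sums. Each gene summed was called lower, so the sums could only fall. The coding sequences of Tuba1a and Tuba1b are 98.3% identical and those of Tuba1b and Tuba1c 98.1%. Of the 50-base windows of the Tuba1b transcript, 59.3% also occur in Tuba1c, so reads could be split between these 3 genes and their separate values are uncertain. Tuba3a and Tuba4a share no such window with them.

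The beta tubulin genes listed in these tables fell as well. Tubb5, with 12840 normalized reads per kb the most abundant tubulin in wild type, went from 32551 and 35217 normalized reads to 14982 and 18624 in Mbd3abc KO, 2.02-fold lower. In the Mbd3cΔN-ab KO table it went from 30895 and 33657 to 22752 and 19884, 1.51-fold lower. Tubb4b had 12422 and 11992 against 5708 and 6253 in Mbd3abc KO (2.04-fold lower), and 11790 and 11461 against 8181 and 7888 in Mbd3cΔN-ab KO (1.45-fold lower). For each of these abundant genes the mutant libraries lay below the wild type libraries in both tables.

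Tubb2b, a neuronal isotype, went from 2864 and 3155 to 749 and 1127 in Mbd3abc KO, 3.21-fold lower, and fell 1.68-fold in Mbd3cΔN-ab KO. Its coding sequence is 96.5% identical to that of Tubb2a, and 45.6% of the 50-base windows of Tubb2a occur in it, so its value is uncertain in the same way. Tubb3, the beta tubulin used as a neuron marker, went from 2024 and 2105 to 802 and 1109 in Mbd3abc KO (2.16-fold lower) and from 1921 and 2012 to 908 and 948 in Mbd3cΔN-ab KO (2.12-fold lower). It lies on chromosome 8, where the second Mbd3abc KO library was 1.41 times the first (median of 310 genes). Tubb3 was 0.389 times the wild type mean in the first Mbd3abc KO library and 0.537 times in the second. Of 10 neural markers, among which Tubb3 is counted, 1 was higher and 5 lower in Mbd3abc KO. There 27.1% of all tested genes were called higher and 24.9% lower. In Mbd3cΔN-ab KO 2 were higher and 5 lower, where 21.1% of all tested genes were called higher and 20.4% lower. The neurofilament gene Ina was 5.62-fold lower in Mbd3abc KO and the tau gene Mapt 4.34-fold higher. The part of neural transcripts in the tubulin differences was not tested, and in bulk RNA fewer cells of a type and less RNA per cell cannot be told apart.

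Tubb6 fell 1.41-fold in Mbd3abc KO and was not listed in the Mbd3cΔN-ab KO table. Summed per kb, 5 beta tubulins stood at 23289 and 24278 in wild type and 10482 and 12576 in Mbd3abc KO, 2.06-fold lower. The 4 that were called in Mbd3cΔN-ab KO stood at 21641 and 22689 against 15032 and 14063, 1.52-fold lower. As with the alpha tubulins, only genes called lower were summed, so these sums could only fall. Tubg1, the gamma tubulin that nucleates microtubules at the centrosome, went from 814 and 803 to 456 and 455 in Mbd3abc KO, 1.77-fold lower, and fell 1.48-fold in Mbd3cΔN-ab KO.

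**Figure D2:**
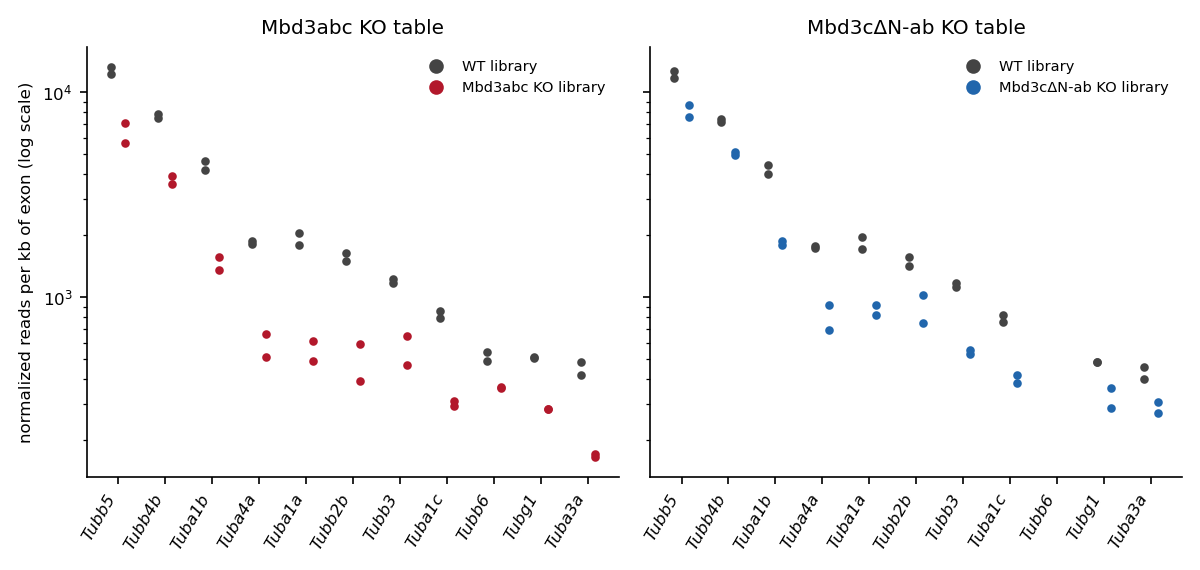
Normalized reads per kb of exon on a log axis for each tubulin gene called in Mbd3abc KO, with 1 point per library, grey for wild type, red for Mbd3abc KO (left panel) and blue for Mbd3cΔN-ab KO (right panel). In each gene shown, both mutant points lie below both wild type points, and Tubb5 is the highest tubulin at 12840 per kb in wild type (left panel).

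Centrosomal proteins of the Cep family moved mostly the other way, 17 higher and 6 lower in Mbd3abc KO and 13 higher and 5 lower in Mbd3cΔN-ab KO. Cep290, a transition zone scaffold whose loss causes ciliopathies, had 9.01 and 2.45 normalized reads in wild type and 192 and 198 in Mbd3abc KO, 34.1-fold higher. Its wild type level rests on 7 and 3 reads. The log2 fold change in the authors' deposited table was 4.63 with SE 0.43 (adjusted p = 6.45e-26). In Mbd3cΔN-ab KO its libraries stood at 75.8 and 140 against 8.55 and 2.34, 19.8-fold higher, so the mutant libraries lay well above wild type in both tables.

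Cep83, a distal appendage protein needed for centriole docking, had 64.4 and 52.2 normalized reads in wild type and 638 and 702 in Mbd3abc KO, 11.5-fold higher. In the Mbd3cΔN-ab KO table it had 61.1 and 49.9 against 313 and 275, 5.30-fold higher. The 2 libraries within each group were close. Cep162, which helps to assemble the transition zone, rose 4.27-fold and 2.59-fold in these mutants. Cep135, a centriole cartwheel protein, rose from 103 and 108 to 431 and 442 in Mbd3abc KO (4.14-fold) and by 2.41-fold in Mbd3cΔN-ab KO. Cep70 rose 3.14-fold and 2.66-fold.

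Cep192, the scaffold that recruits Plk4 and pericentriolar material and the most abundant Cep gene per kb in wild type (310 in the Mbd3abc KO table), had a small rise. It went from 2509 and 2483 normalized reads to 3529 and 3430 in Mbd3abc KO, 1.39-fold, and 1.37-fold in Mbd3cΔN-ab KO. The libraries of each group differed by less than the distance between groups. The smallest rise of a Cep gene in Mbd3abc KO was 1.26-fold, in Cep85.

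The Cep genes that fell include proteins of the satellites and distal appendages. Cep131, a centriolar satellite protein, went from 600 and 543 to 169 and 233 in Mbd3abc KO, 2.84-fold lower, and from 569 and 519 to 243 and 286 in Mbd3cΔN-ab KO, 2.06-fold lower. Cep164, a distal appendage protein, had 955 and 855 against 243 and 547 in Mbd3abc KO, 2.29-fold lower, and fell 2.04-fold in Mbd3cΔN-ab KO. The Mbd3abc KO libraries of Cep164 differed from each other more than those of Cep131. Cep41, a gene tied to tubulin glutamylation in cilia, fell 2.08-fold and 2.09-fold. Cep83 and Cep164, which both act at distal appendages, were thus called in opposite directions.

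Satellite and appendage genes outside the Cep family gave 3 rises and 1 fall in each of these mutants. Pcm1, the scaffold of centriolar satellites, had 447 and 259 normalized reads in wild type and 2538 and 4083 in Mbd3abc KO, 9.38-fold higher. In the Mbd3cΔN-ab KO table it had 424 and 248 against 1363 and 1681, 4.53-fold higher. Pcm1 lies on chromosome 8, where the second Mbd3abc KO library was 1.41 times the first (median of 310 genes), while the other chromosomes lay between 0.967 and 1.05. Against the wild type mean, Pcm1 was 7.19 times in the first Mbd3abc KO library and 11.6 times in the second.

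Odf2l, a suppressor of cilium formation related to Odf2, rose from 33.5 and 26.1 to 184 and 188 in Mbd3abc KO, 6.24-fold, and from 31.8 and 24.9 to 138 and 132 in Mbd3cΔN-ab KO, 4.77-fold. Odf2, the mother centriole appendage protein, moved the other way from a far higher level. It went from 3387 and 3421 to 2200 and 2571 in Mbd3abc KO, 1.43-fold lower, and fell 1.26-fold in Mbd3cΔN-ab KO. Ofd1, a distal centriole protein, rose 3.22-fold and 2.18-fold.

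**Figure D3:**
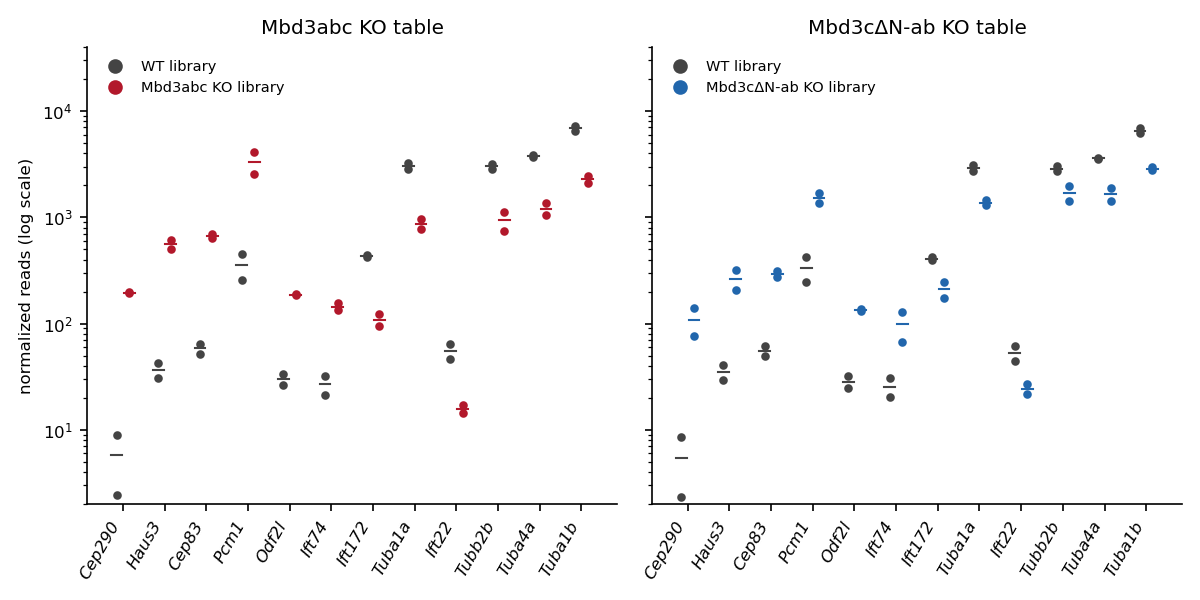
Normalized reads on a log axis for the 6 members with the largest rise (left of each panel) and the 6 with the largest fall in Mbd3abc KO, with 1 point per library and a dash at each group mean. Levels are not divided by length, so they compare libraries and not genes. Cep290 goes from 9.01 and 2.45 in wild type to 192 and 198 in Mbd3abc KO.

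Augmin, the complex of HAUS proteins that branches spindle microtubules, had 4 called subunit genes that did not move together. Haus3 had 42.5 and 31.0 normalized reads in wild type and 615 and 506 in Mbd3abc KO, 15.2-fold higher, and 40.3 and 29.6 against 206 and 317 in Mbd3cΔN-ab KO, 7.47-fold higher. Haus6 rose from 357 and 299 to 1356 and 1392 in Mbd3abc KO (4.19-fold) and by 2.96-fold in Mbd3cΔN-ab KO. Haus2 rose 3.90-fold and 2.37-fold. Haus5 went from 487 and 474 to 177 and 200 in Mbd3abc KO, 2.55-fold lower, and from 462 and 453 to 212 and 235 in Mbd3cΔN-ab KO, 2.05-fold lower. In wild type Haus5 had the most reads per kb of these 4 genes and Haus3 the fewest, 221 against 18.9.

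Nek kinases act in centrosome separation and spindle assembly. Nek7, needed for spindle assembly, rose 3.13-fold in Mbd3abc KO and 2.55-fold in Mbd3cΔN-ab KO. Nek1, a kinase of the basal body on chromosome 8, stood at 224 and 240 in wild type and 410 and 785 in Mbd3abc KO, and was called higher in both mutants. Nek9, which activates Nek7, went from 776 and 934 to 562 and 615 in Mbd3abc KO, 1.45-fold lower, and the ciliary kinase gene Nek8 fell 1.48-fold there. Neither was listed in the Mbd3cΔN-ab KO table.

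Intraflagellar transport genes were called lower more often than higher, 7 against 2 in Mbd3abc KO and 4 against 2 in Mbd3cΔN-ab KO. Ift172, the large subunit at the periphery of the anterograde complex B, had 418 and 440 normalized reads in wild type and 93.8 and 123 in Mbd3abc KO, 3.96-fold lower. The authors' deposited table gave a log2 fold change of -1.94 with SE 0.22 (adjusted p = 8.93e-18). In the Mbd3cΔN-ab KO table Ift172 had 397 and 420 against 176 and 246, 1.94-fold lower. Wild type and mutant libraries were well apart in both tables.

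Ift22, a small GTPase-like subunit of complex B, went from 46.3 and 63.6 to 14.5 and 17.2 in Mbd3abc KO, 3.47-fold lower, and fell 2.15-fold in Mbd3cΔN-ab KO. Ift140, a core subunit of the retrograde complex A, went from 784 and 706 to 252 and 292 in Mbd3abc KO, 2.74-fold lower, and fell 1.78-fold in Mbd3cΔN-ab KO. Ift122, also of complex A, fell 2.56-fold and 1.79-fold. Ift52, the intraflagellar transport gene with the most reads per kb in wild type, fell 2.10-fold in Mbd3abc KO.

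Against these stood 2 complex B genes. Ift74, whose protein pairs with Ift81 to bind tubulin cargo, went from 32.2 and 21.2 to 133 and 155 in Mbd3abc KO, 5.39-fold higher, and from 30.5 and 20.3 to 67.4 and 129 in Mbd3cΔN-ab KO, 3.86-fold higher. Ift80 rose from 100 and 90.5 to 376 and 382 in Mbd3abc KO, 3.97-fold, and by 2.68-fold in Mbd3cΔN-ab KO. Genes of the same complex B were thus called in opposite directions within each mutant.

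Bardet-Biedl genes encode the BBSome coat, which moves membrane proteins in and out of cilia. Bbs5 had 15.5 and 14.7 normalized reads in wild type and 34.8 and 58.2 in Mbd3abc KO, 3.09-fold higher, and rose 2.82-fold in Mbd3cΔN-ab KO. Bbs7 rose 2.29-fold in Mbd3abc KO. Bbs1 went from 115 and 129 to 41.6 and 62.0 there, 2.35-fold lower. The transition zone genes split as well, 4 higher and 3 lower in Mbd3abc KO and 3 higher and 2 lower in Mbd3cΔN-ab KO. Rpgrip1l, a scaffold at the base of the transition zone, rose from 52.8 and 51.4 to 130 and 259 in Mbd3abc KO. It lies on chromosome 8, and was 2.51 times the wild type mean in the first Mbd3abc KO library and 4.96 times in the second. Tmem231, also on chromosome 8, had the most reads per kb of this group in wild type (119) and rose 1.87-fold. The tectonic genes Tctn2 and Tctn3 fell 2.03-fold and 1.99-fold in Mbd3abc KO, and 1.73-fold and 1.94-fold in Mbd3cΔN-ab KO.

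Among the dyneins, Dync1h1, the heavy chain of cytoplasmic dynein 1, went from 16367 and 16507 normalized reads to 10514 and 9014 in Mbd3abc KO, 1.68-fold lower. It went from 15534 and 15776 to 11079 and 9348 in Mbd3cΔN-ab KO, 1.53-fold lower. Its intermediate chain gene Dync1i2 went the other way, from 700 and 697 to 1267 and 1197 in Mbd3abc KO (1.76-fold) and by 1.504-fold in Mbd3cΔN-ab KO. Dync2h1, the heavy chain of the retrograde motor of cilia, rose from 111 and 134 to 293 and 245 in Mbd3abc KO, 2.20-fold, and was not listed for Mbd3cΔN-ab KO.

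Axonemal heavy chain genes, which serve motile cilia and sperm, were called in 3 mutants. Dnah10, an inner arm heavy chain, went from 39.9 and 50.6 normalized reads to 182 and 217 in Mbd3abc KO, 4.40-fold higher. It had 37.9 and 48.3 against 126 and 81.3 in Mbd3cΔN-ab KO (2.41-fold higher), and 34.2 and 43.9 against 105 and 122 in Mbd3ab KO (2.91-fold higher). Mutant libraries lay above wild type in each of the 3 tables. Dnah17, an outer arm heavy chain of sperm tails, rose from 23.2 and 51.4 to 109 and 92.5 in Mbd3abc KO, 2.71-fold, and by 2.89-fold in Mbd3cΔN-ab KO. Dnah1 rose 2.00-fold in Mbd3abc KO.

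Dnah8 stood apart from these by level. In wild type it had 228 normalized reads per kb, beside 3.23, 3.24 and 2.52 for Dnah1, Dnah10 and Dnah17. It went from 3237 and 3373 to 1998 and 1013 in Mbd3abc KO, 2.20-fold lower, and its 2 mutant libraries differed by more than those of the other heavy chains. Among 10 markers of multiciliated cells 2 were called higher and 1 lower in Mbd3abc KO, and 3 higher and 1 lower in Mbd3cΔN-ab KO. Over all tested genes 27.1% were called higher and 24.9% lower in Mbd3abc KO, and 21.1% and 20.4% in Mbd3cΔN-ab KO. Foxj1, the transcription factor that drives motile cilium genes, had 18.03 and 10.6 normalized reads in wild type and 196 and 79.2 in Mbd3abc KO, 9.62-fold higher. It rose from 15.5 and 9.22 to 141.3 and 43.7 in Mbd3ab KO (7.49-fold), and from 17.1 and 10.1 to 168 and 25.4 in Mbd3cΔN-ab KO (7.12-fold). In each of these lines the first library was well above the second. Ccno, a regulator of multiciliated cell differentiation, went from 54.1 and 45.7 to 1.93 and 0.956 in Mbd3abc KO, so these markers did not move together. The part of such cells in the Dnah values was not tested.

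In Mbd3ab KO the other 2 called members were Tubb2a and Ift57. Tubb2a had 190 and 212 normalized reads in wild type and 456 and 312 in the mutant, 1.91-fold higher (adjusted p = 0.0481 in the authors' deposited table). Of its 50-base windows 45.6% also occur in Tubb2b, so reads could be split between them and the Tubb2a value is uncertain. Ift57, a peripheral complex B subunit, had 93.9 and 70.9 against 33.5 and 24.1, 2.86-fold lower (adjusted p = 0.0368 in the authors' deposited table). For Dnah10 that table gave an adjusted p of 0.00462. When the listed genes were tested again on recovered reads (232 of the 442 called genes kept a call with DESeq2), none of the 3 kept its call, with adjusted p of 0.0985 for Dnah10, 0.131 for Tubb2a and 0.356 for Ift57 by DESeq2, although each had an unadjusted p under 0.05.

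The direct comparison of Mbd3abc KO with Mbd3cΔN-ab KO covered the 54 members listed in both tables, tested on recovered reads with edgeR's quasi-likelihood test among 5413 genes. It called 7 members, where 6.67% of the genes tested were called. An unadjusted p under 0.05 was found for 25 members. It was not counted over all genes, so this number does not set the members apart. Cep83 was 2.11-fold higher in Mbd3abc KO (log2 difference 1.08, edgeR adjusted p = 0.0230) and Cep57, a centrosomal microtubule-binding protein, 1.60-fold higher (edgeR adjusted p = 0.0302). Ift172 was 2.10-fold lower in Mbd3abc KO (log2 difference -1.07, edgeR adjusted p = 0.0380). Tuba3a, Tuba1a, Tubb2b and Tubb4b were also lower there, by 1.86, 1.70, 1.96 and 1.45-fold. The other 47 members had an adjusted p of 0.05 or more, which does not show that they were alike in the 2 mutants. With the 4 mutant libraries fitted without wild type no member was called, where 10 of the 5413 genes were called. The number of member calls also depended on which library was left out.

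**Figure D4:**
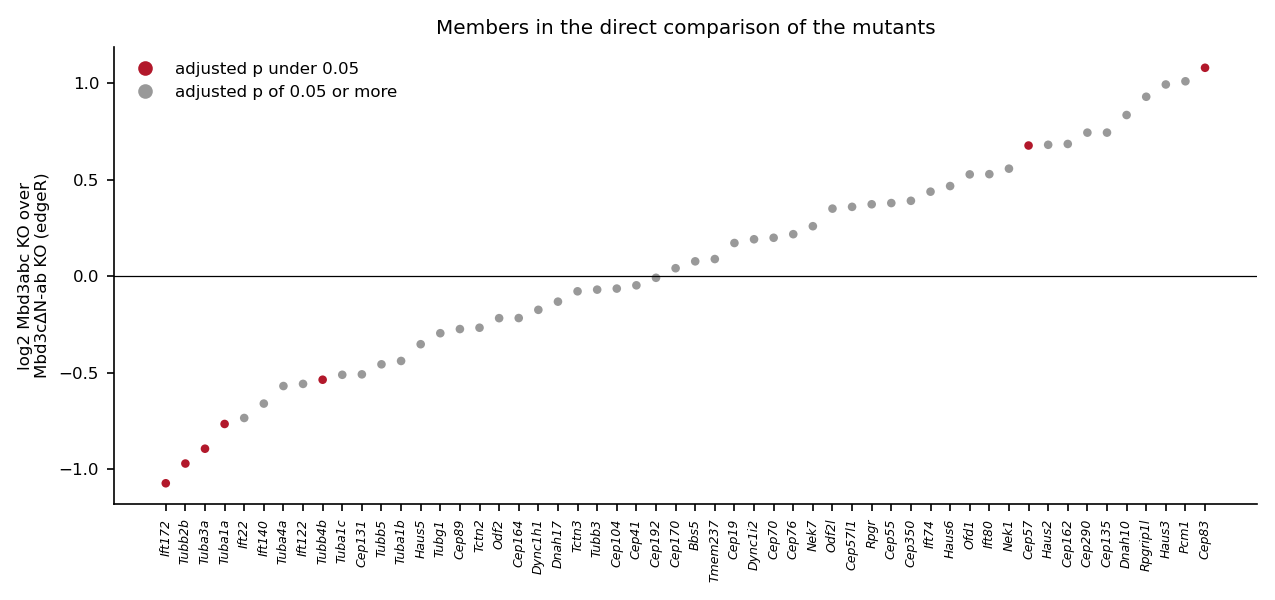
Each point is 1 of 54 members, ordered by the edgeR log2 difference of Mbd3abc KO over Mbd3cΔN-ab KO on the vertical axis, red where the adjusted p was under 0.05. Ift172 at -1.07 and Cep83 at 1.08 are the ends of the range.

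Base composition of the transcripts separated rising from falling members. In Mbd3abc KO the median GC content was 43.3% for the 38 higher members and 53.3% for the 34 lower ones. Across all called genes the same medians were 44.9% and 55.2%. Spearman's rho between GC content and the authors' deposited log2 fold change was -0.76 over 72 members and -0.68 over 8105 called genes. It is a description across genes of the same libraries, which are not independent replicates. In Mbd3cΔN-ab KO it was -0.79 over 54 members and -0.74 over 5973 called genes.

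When all genes called in Mbd3abc KO were divided into 5 equal classes by GC content, 21 members fell in the lowest class (up to 43.5%) and 21 were higher, where 98.4% of all called genes in the class were higher. The next class held 14 members, of which Cep41 and Cep68 were lower, and 86.1% of its called genes were higher. In the middle class 2 of 13 members were higher, Cep85 and Tmem231, beside 45.0% of its genes. The fourth class held 18 members, of which Dnah1, Dnah10 and Dnah17 were higher, beside 20.7% of its genes. None of 6 members in the class of highest GC content was higher, beside 10.3% of its genes. The tubulins lie in the upper 3 classes, whose genes mostly fell. Level moved with the groups too, with a median wild type level of 101 for the higher members and 710 for the lower ones in Mbd3abc KO. Across all called genes there these medians were 146 and 530. The part of GC content and level in these differences was not tested.

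**Figure D5:**
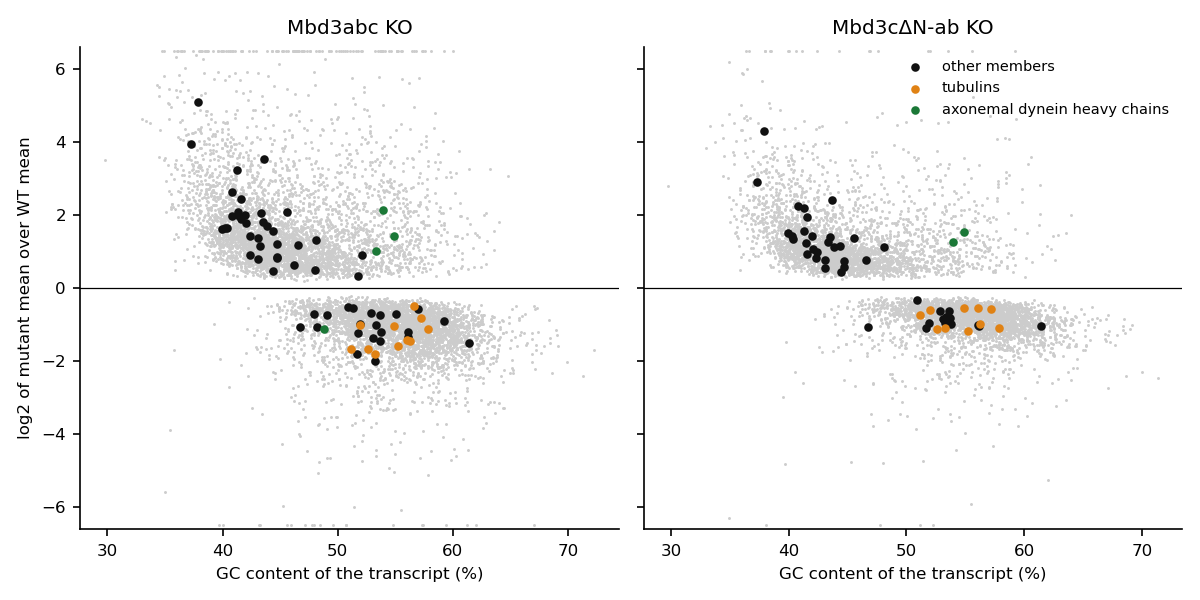
The log2 ratio of mutant mean to wild type mean (vertical axis) against GC content of the transcript in percent (horizontal axis) for called genes, small grey points for all genes and large points for members, with grey points beyond 6.5 in either direction drawn at the edge. Members of low GC content lie above 0 and most of high GC content below it, and the axonemal heavy chains Dnah1, Dnah10 and Dnah17 (green) lie above 0 at 53.4% to 54.9%.

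Promoters of cilium genes are known to carry X-boxes, the binding sites of RFX factors. The core searched here was GTTGCC or GTTACC on either strand, in the RefSeq promoters of the GRCm38.p6 assembly (250 bases before to 50 after each start), where 63 of the 74 members had an entry. A gene was counted if any of its promoters held the core. These were 44.4% of members, beside 20.8% of 27025 genes in all and 20.7% of genes called in Mbd3abc KO. The share was 43.8% among members higher in Mbd3abc KO and 44.8% among those lower, so the core was about as frequent in both. Windows of 30 bases are given for the intraflagellar transport, Bardet-Biedl and transition zone members that hold a core with its flanks before the start, with the core nearest to the start in capitals, in the direction of transcription. The windows of Ift57 and Tctn3 hold another core, left in lower case. They show the core beside genes called higher (Bbs7, Rpgrip1l, Tmem231) and lower (Ift140, Tctn2, Tctn3 in Mbd3abc KO, Ift57 in Mbd3ab KO).
Bbs7, chr3:36613493-36613522, minus strand: gaatgcgccccgGTTGCCttggaaaccggc
Rpgrip1l, chr8:91313285-91313314, minus strand: catttcccagtgGGTAACgggactcactgt
Tmem231, chr8:111933900-111933929, minus strand: ccagcccatacaGTTGCCttcttgaagaga
Ift140, chr17:25015965-25015994, plus strand: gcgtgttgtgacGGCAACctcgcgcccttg
Tctn2, chr5:124598675-124598704, plus strand: tactgattggagGTTACCatggctactggt
Tctn3, chr19:40612347-40612376, minus strand: cagcggttgccaGGTAACgggaaccacgcg
Ift57, chr16:49699229-49699258, plus strand: ctgcggttgcctGGTAACggtggggactgt
The CCAAT box (CCAAT on either strand), counted by gene in the same way, occurred in 58.7% of members, beside 42.5% of genes called in Mbd3abc KO. It stood in 72.4% of members lower in Mbd3abc KO, among them 6 of 8 tubulin genes, and in 46.9% of those higher. The CCAAT box was not counted by direction over all called genes, so this split does not set the members apart. A CRE core (TGACG on either strand) occurred in 47.6% of members beside 35.3%, and an NRF1 core (CATGCGC on either strand) in 3.17% beside 8.57%. A match to these letters is not a measured site.

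Genes of the same structures outside the name pattern were counted from lists, to be read against the 52.1% of all tested genes called in Mbd3abc KO (27.1% higher, 24.9% lower, median fold of called genes 1.38) and the 41.5% in Mbd3cΔN-ab KO (21.1% higher, 20.4% lower). The lists may hold genes that were not tested. They also hold older symbols of members, Azi1 for Cep131 and Rabl5 for Ift22, which had no match. The list sizes are therefore upper limits. Of 43 other centriole and pericentriolar genes, 22 were higher and 9 lower in Mbd3abc KO (median fold 1.77), and 15 were higher and 7 lower in Mbd3cΔN-ab KO. Akap9, a scaffold of pericentriolar material, went from 143 and 141.1 to 835 and 709 in Mbd3abc KO, 5.44-fold higher. Crocc, the rootlet protein, went from 1017 and 989 to 372 and 373, 2.69-fold lower. Of 62 other cilium genes, 14 were higher and 17 lower in Mbd3abc KO, and 9 were higher and 14 lower in Mbd3cΔN-ab KO. The transition zone gene Mks1 fell 4.14-fold in Mbd3abc KO while Kif3a, the anterograde motor subunit, rose 3.26-fold.

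Dynein partners split 14 higher and 7 lower of 41 in Mbd3abc KO, and 9 higher and 8 lower in Mbd3cΔN-ab KO, so the share called was near that of all tested genes in each. Among the rises in Mbd3abc KO, Dynlt1c and Dynlt1f had equal values in every library. They may rest on the same reads, though they are counted as separate genes. Hook3, an adaptor that activates dynein, went from 102 and 90.5 to 640 and 716 in Mbd3abc KO, 7.06-fold higher, and Actr1b, a dynactin filament subunit, fell 4.24-fold. Of 60 genes for tubulin folding, tubulin modification and microtubule binding, 15 were higher and 19 lower in Mbd3abc KO, and 10 were higher and 18 lower in Mbd3cΔN-ab KO, against the same shares of 52.1% and 41.5% over all tested genes.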

How the data were processed

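RNA-seq of 10 libraries was used. The submitters' processing notes name DESeq2, HOMER and TopHat2, and the mm10 build, without versions. Exon reads on the minus strand setting were counted with HOMER and condensed to genes, and DESeq2 compared each mutant with wild type, per the file headers. The read columns and the mean level are a normalized signal that the authors deposited, scaled per library within each of 4 tables. The authors' deposited log2 fold change, its SE, p-value and adjusted p-value were used as deposited, and a score column (Wald statistic) the authors deposited was not.

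Reads were recovered by dividing by the value of 1 read in each library (100% of values whole within 0.02 reads in the 3 tables used). Rows past the adjusted p threshold of 0.05 were left out, 1 of 443 for Mbd3ab KO, 0 of 38 for Mbd3c KO, 9 of 8141 for Mbd3abc KO and 11 of 6000 for Mbd3cΔN-ab KO. The number tested came from p against adjusted p. Size factors came from the deposited mean level, and normalized reads were recomputed from them. The total depth is unknown, since the tables list called genes, and relative depth limits precision. Refits used edgeR 4.0.16 and DESeq2 1.42.0 in R 4.3.3, after checks on simulated data, and take the spread from called genes. The direct comparison used edgeR with TMM over wild type and both mutants. GC content is that of GENCODE M21 transcripts. The coding stretch of 1 further member is not reported here. No fold is given for a group with 3 or fewer reads.

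Members, roles and lists were chosen with earlier results of these data known. Named members are those called in Mbd3ab KO or Mbd3c KO, the 10 largest rises and 10 largest falls in Mbd3abc KO and in Mbd3cΔN-ab KO, the most abundant called member per kb of each role, members called in opposite directions in these 2 mutants (there were 0), and those differing at least 2-fold in the direct comparison. Others named were chosen after their values were seen. Fibroblast markers, a list of 10, gave 1 higher and 1 lower in each of these mutants, where 52.1% and 41.5% of all tested genes were called. Alternatives were other thresholds, refits and leaving out libraries.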

Additional observations from a re-analysis of the deposited data

Results flagged for a closer look

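Mbd3abc KO and Mbd3cΔN-ab KO differed in 2 members by at least 2-fold in the direct test. Cep83 was higher in Mbd3abc KO than in Mbd3cΔN-ab KO (log2 1.08), with 638 and 702 normalized reads in Mbd3abc KO (11.5-fold over wild type) and 313 and 275 in Mbd3cΔN-ab KO (5.30-fold over wild type, normalized separately). Ift172 was lower in Mbd3abc KO (log2 -1.07), at 93.8 and 123 against 176 and 246. With wild type left out of the fit neither was called, where 10 of 5413 genes were called.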

How the results depend on the processing

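No paired analysis was possible because the mutant columns of the tables carry tags that match no replicate number of the labels. No single member changed direction in the refits run, but above the median level falls outnumbered rises in both Mbd3abc KO and Mbd3cΔN-ab KO. That balance was not counted over all called genes, so it does not set the members apart. The median wild type level of all called genes was 146 for rises and 530 for falls in Mbd3abc KO. In Mbd3cΔN-ab KO it was 181 for rises and 626 for falls. The 3 calls in Mbd3ab KO became 1 at an adjusted p of 0.01 and 1 above the median level, and 0 in each refit on recovered reads (edgeR with the authors' size factors, edgeR with TMM, DESeq2), all 3 with an unadjusted p under 0.05, where these refits called 0, 32 and 232 of all genes, and 0 to 1 when a library was left out. In Mbd3abc KO 35 members (14 higher, 21 lower) were called above the median level, and of the falls 22 were at least 2-fold. Leaving out 1 library, refitted with DESeq2 with the lone library assumed to vary like the other group, gave 41 to 55 calls (24 to 29 higher, 16 to 27 lower). In Mbd3cΔN-ab KO 30 were at least 2-fold, of them 9 lower, 23 were above the median level (8 higher, 15 lower), and leaving out 1 library gave 15 to 37 calls (10 to 22 higher, 5 to 17 lower), the fewest without the first wild type library. Refits of all libraries called 70, 69 and 63 members in Mbd3abc KO and 54, 54 and 45 in Mbd3cΔN-ab KO (edgeR with the authors' size factors, edgeR with TMM, DESeq2). Without chromosome 8, an alternative chosen after seeing the data, 67 and 50 remained. The direct comparison gave 0 members at an adjusted p of 0.01, 2 of at least 2-fold, 14 with DESeq2, 5 with the authors' size factors, 10 among genes with at least 10 reads in every library, 0 with the mutant libraries alone, and 0 to 7 when a library was left out. The cause was not tested. Of the alternatives for single members, 679 kept the call and 294 lost it.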

Other observations

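Hedgehog signalling, which in mammals runs through the primary cilium, was counted from a list of 18 genes. In Mbd3abc KO 6 of these were called lower and 0 higher, where 24.9% of all tested genes were lower and 52.1% were called. In Mbd3cΔN-ab KO 6 were lower and 0 higher, where 20.4% of all tested genes were lower and 41.5% were called. The list may hold genes that were not tested. The 6 of 18 called is a smaller share than the 52.1% and 41.5% of all tested genes called. It is a larger share than the 24.9% and 20.4% of all tested genes called lower. Gli1, a transcription factor and target of the pathway, had 1233 and 1156 normalized reads in wild type and 242 and 305 in Mbd3abc KO, 4.37-fold lower. Ptch1, the receptor and also a target, had 3004 and 2728 against 672 and 660, 4.30-fold lower. In Mbd3cΔN-ab KO Gli1 was 3.602-fold and Ptch1 2.41-fold lower. In Mbd3ab KO 2 of the 18 were called, where 3.35% of all tested genes were called and 1.3% were lower. There Ptch1 went from 2577 and 2370 to 1178 and 1177, 2.10-fold lower, and Hhip, a ligand-binding inhibitor, from 37.5 and 25.5 to 2.45 and 4.52. Smo, the membrane transducer, fell 1.62-fold in Mbd3abc KO. The median fold of the called genes was 0.361 in Mbd3abc KO, beside 1.38 over all called genes, and their median GC content was 58.5%, in the class of highest GC content where 10.3% of all called genes were higher. The part of GC content was not tested.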
